A study of Mus musculus with 6 samples.

Results

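Cytosolic ribosomal protein genes encode the proteins of the large and small subunits of the ribosome that translates nuclear-encoded mRNAs. Members were taken by symbol: *Rpl* or *Rps* followed by a number and an optional letter a, l or x, together with *Rplp0*, *Rplp1*, *Rplp2* and *Rpsa*, without S6 kinase genes and pseudogenes. The rule also left out 2 genes that fit this pattern, so the set is not the complete family. The rule found 78 genes, 46 of the large and 32 of the small subunit, among 59484 features of the deposited table, of which 23505 carry a symbol. A mean of at least 10 normalized counts over the 6 libraries, needed for testing, was reached by 75 of the 78 and by 18970 features in all. *Rpl10l*, *Rpl39l* and *Rpl3l* did not reach it.

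PolyA+ RNA of the mouse cortex at embryonic day 18.5 was sequenced from 3 wild-type animals and 3 animals in which both Sam68 (*Khdrbs1*) and SLM2 (*Khdrbs3*) were knocked out, here called dKO. These are paralogous RNA-binding proteins that regulate splicing. The value of a gene is a normalized count, its reads scaled by the size factor of the library. The values describe whole genes and say nothing about single exons or about protein. The labels give 1 cortex per library and name no litter, so *P*-values measure the spread between these samples, part of which may be technical.

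The wild-type libraries held 37301024, 32966884 and 39654253 reads on the listed features, and the dKO libraries held 40896541, 34808551 and 31837922. Depth therefore overlapped between the genotypes.

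The targeted genes were examined first. *Khdrbs1* had 8231, 8436 and 7974 normalized counts in wild-type and 114, 197 and 146 in dKO cortex, a log2 fold change of -5.78 (SE 0.16, adjusted p = 1.08e-07 from limma). *Khdrbs3* had 13543, 15215 and 12764 in wild-type and 7060, 6350 and 6547 in dKO cortex, a log2 fold change of -1.05 (SE 0.09, adjusted p = 0.000855 from limma). In both genes every dKO library lay below every wild-type library, so the labels and the values point the same way. At the level of whole genes much *Khdrbs3* signal remained in dKO cortex, 0.481 of the wild-type mean, and the deleted part of the gene was not examined.

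The cortical and neuronal markers *Emx1*, *Neurod6*, *Tbr1*, *Bcl11b* and *Tubb3* were detected in every library. *Tubb3* was the most abundant, with 148988, 137245 and 143717 normalized counts in wild-type and 159016, 161506 and 166759 in dKO cortex. *Emx1*, *Bcl11b* and *Tubb3* were higher in every dKO library than in every wild-type library, with log2 fold changes of 0.54, 0.31 and 0.18, and *Tbr1* and *Neurod6* overlapped, with 0.25 and 0.23. The choroid plexus markers *Ttr*, *Folr1*, *Kl*, *Clic6* and *Kcne2* were near 0, with a sum of at most 82.4 in any library. In bulk tissue, fewer cells of a type and less RNA per cell cannot be told apart.

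Ribosomal proteins are made in nearly equal amounts, and most are needed for assembly of the subunit they belong to. Their mRNAs are short, very abundant and begin with a run of pyrimidines, the 5′ terminal oligopyrimidine (TOP) motif, through which mTOR signalling and LARP1 control their translation. In the developing cortex, progenitors and young neurons are known for high ribosome production. Mouse genomes carry many processed copies of these genes, so reads can be split between a gene and near-identical sequence elsewhere.

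Almost all members had a higher mean in dKO than in wild-type cortex, by a small and similar amount. The median log2 fold change over the 75 members was 0.29, against 0.00 over all features tested. It was above 0 for 74 of the 75. The exception was *Rpl3*. The quartiles lay at 0.22 and 0.33. The median was also above 0 with quantile normalization (0.22) and with TMM rescaling (0.29).

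No member passed an adjusted *P*-value of 0.05 from limma, where 19 of all features, or 0.1%, did. edgeR called 0 members (0.0843% of all features). DESeq2 called 1, *Rpl3* (1.06% of all features). At an unadjusted *P*-value under 0.05 limma gave 41 members, or 54.7%, against 11.5% of all features. Of these 41, 40 were higher in dKO cortex, where 4.92% of all features were, and 1 was lower, where 6.58% were. At the same unadjusted threshold edgeR gave 42, or 56%, against 11.9% of all features, and DESeq2 gave 49, or 65.3%, against 11.6%. The limma count depended on the settings: it was 15, or 20%, against 10.03% of all features with quantile normalization, and 6, or 8%, against 9.88% without the trend and robust options.

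The genotypes did not overlap in 11 members. Every dKO library lay above every wild-type library in 10 of them, or 13.3%, against 7.89% of all features, and below in 1, *Rpl3*, against 8.48% of all features. With quantile normalization only 3 members, or 4%, did not overlap, against 14.8% of all features. With the length adjustment, 40 were higher without overlap, or 53.3%, against 9.87% of all features with a length, and 1 was lower. Members of the large subunit had a median log2 fold change of 0.28 over 43 genes and those of the small subunit 0.29 over 32.

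**Figure D1:**
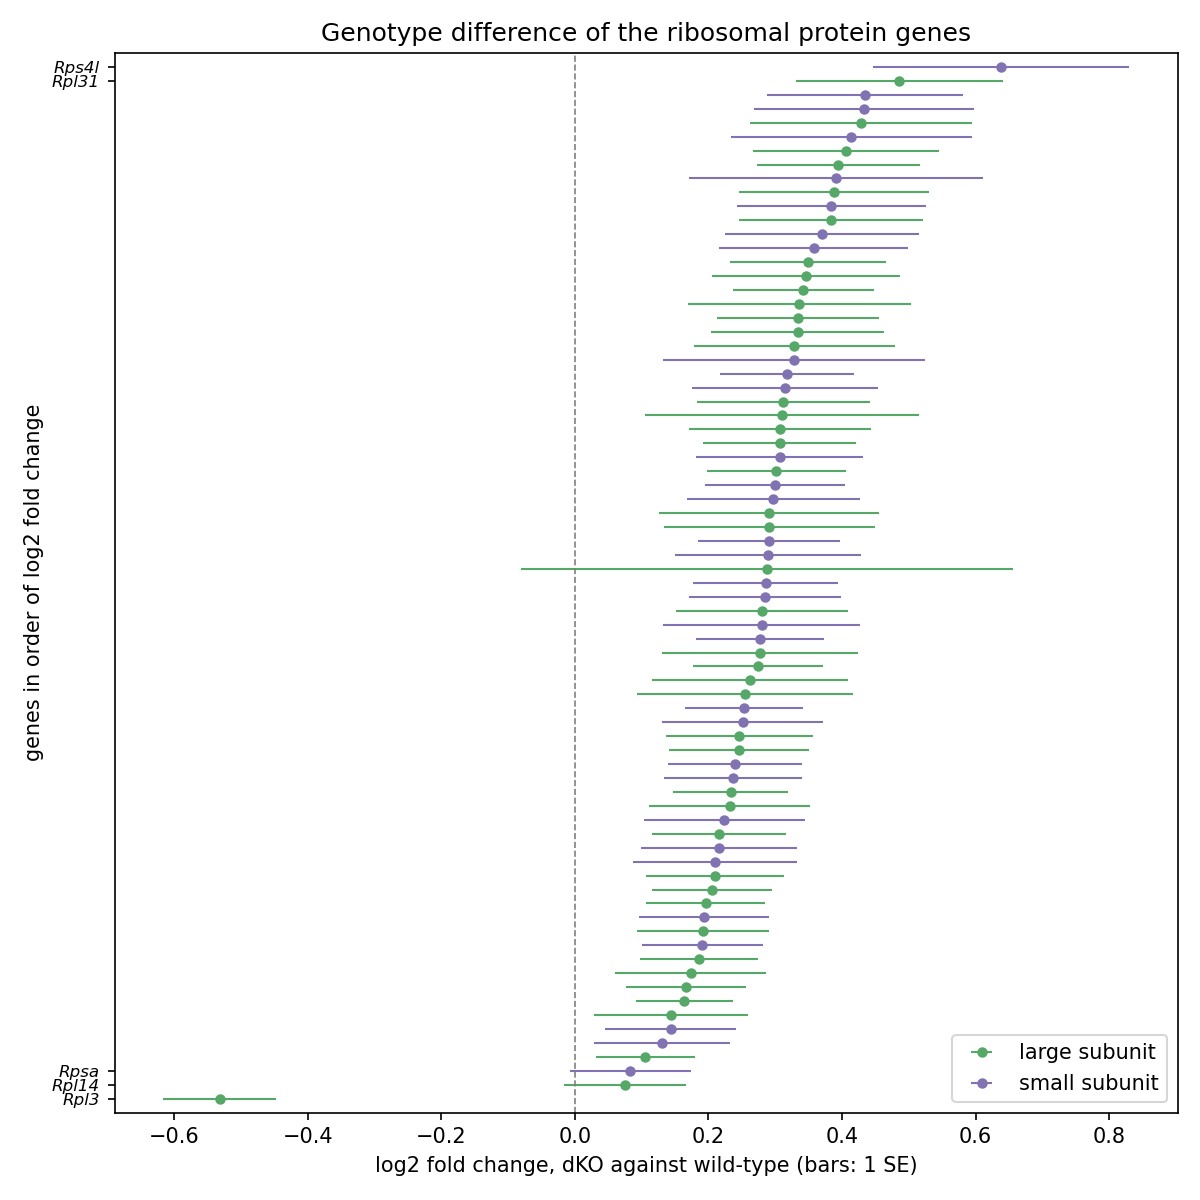
Log2 fold change of each of the 75 tested ribosomal protein genes in dKO against wild-type cortex, in order of size, with bars of 1 SE (limma, 3 libraries per genotype), colored by subunit and with a few genes named. All lie above 0 except *Rpl3*, at -0.53.

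The libraries of a genotype differed in the level of the whole family. The members' summed normalized counts were 733151, 860668 and 833185 in wild-type and 808664, 1027001 and 1041663 in dKO cortex. dKO replicates 2 and 3 lay above all wild-type libraries, whereas dKO replicate 1 lay inside the wild-type range. Expressed as a share of all listed reads, the members took 2.30% ± 0.201 of the wild-type and 2.61% ± 0.371 of the dKO libraries (mean ± SD of 3 libraries). The ratio was 1.13.

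Within genotypes the members moved together. Their median deviation from the wild-type mean, on the log2 scale, was -0.14, 0.08 and 0.05 in wild-type replicates 1 to 3 and 0.02, 0.41 and 0.42 in dKO replicates 1 to 3. Wild-type replicate 1 was the lowest library for 69 of the 75 members. The highest library was dKO replicate 2 for 34 and dKO replicate 3 for 39. Over all features tested, the median deviation was -0.00, 0.01 and 0.01 in wild-type and 0.00, -0.00 and 0.00 in dKO replicates 1 to 3. Counts of the lowest and highest library over all features are not given here.

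dKO replicate 1 stood inside the wild-type range for 60 members, above it for 10 and below it for 5. dKO replicate 2 stood above the wild-type range for 74 members and dKO replicate 3 for 73. The share of all features outside the wild-type range in each dKO library is not given here, so these counts lack a baseline. Without dKO replicate 1, limma called 8 members at the adjusted threshold, 7 of them higher and *Rpl3* lower, and 69, or 92%, at the unadjusted threshold, against 0.242% and 11.9% of all features. *Rpl31*, *Rps18*, *Rplp2* and *Rplp1* were among the 7. Without wild-type replicate 1 the unadjusted count was 6, or 8% of members, against 8.1% of all features. Without dKO replicate 2 it was 7, or 9.33%, against 12.2%, and without dKO replicate 3 it was 6, or 8%, against 6.43%. In these 3 fits the members' share of unadjusted calls no longer stood far above that of all features. Their median log2 fold change was 0.22, 0.22 and 0.21, against -0.00, 0.01 and 0.01 over all features.

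**Figure D2:**
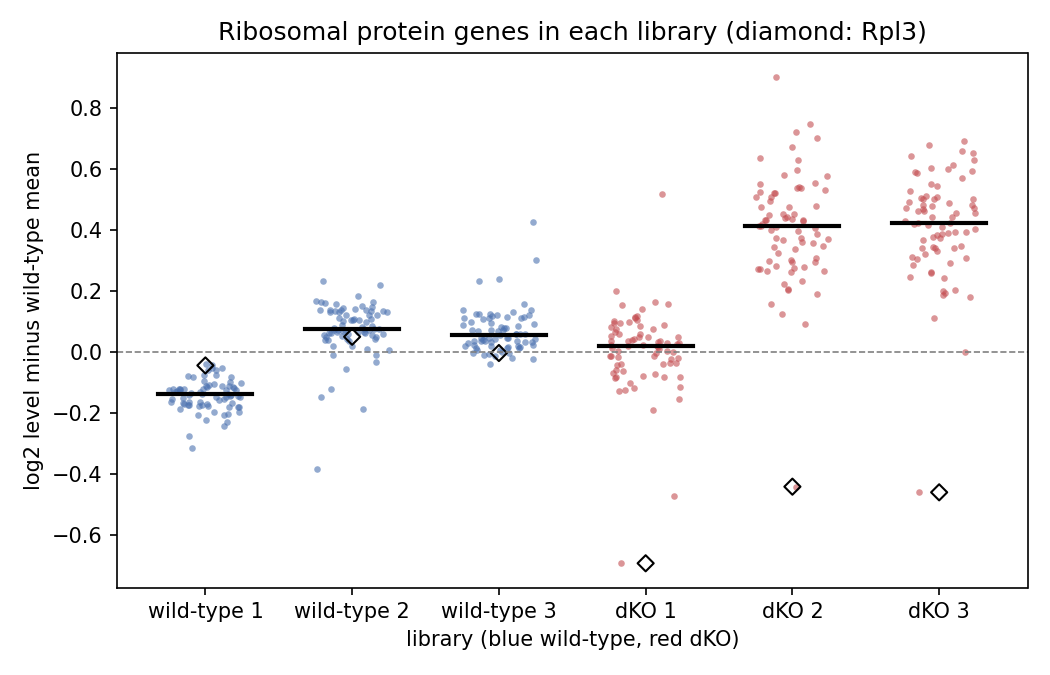
Log2 level of each of the 75 members minus its wild-type mean, in each of the 6 libraries; dots are genes, black lines are medians and diamonds mark *Rpl3*. The median is -0.14 in wild-type replicate 1, 0.02 in dKO replicate 1 and 0.41 and 0.42 in dKO replicates 2 and 3.

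The same libraries differed in the relative signal on short transcripts. The members' transcripts had a median length of 887 bases, from 383 to 5179, against a median of 3072 over the 13903 other features tested with a known length. Across 13978 features with a length, the Spearman correlation between transcript length and a feature's deviation from its 6-library mean was 0.28, -0.13 and -0.17 in wild-type replicates 1 to 3. It was 0.34, -0.24 and -0.17 in dKO replicates 1 to 3. Genes are not independent replicates, and these values only describe the libraries. Both libraries numbered 1 thus carried relatively less signal on short transcripts, and in both the members were lower than in the other libraries of the genotype.

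The 771 other features with a transcript under 1000 bases had a median log2 fold change of 0.09, and 57 of them, or 7.39%, were higher at an unadjusted *P*-value under 0.05. The 48 members under 1000 bases had a median of 0.29, and 24 of them, or 50%, were. In dKO replicates 2 and 3 the median deviation of the other short features was 0.19 in each, against 0.41 and 0.42 for all 75 members, of any length. In dKO replicate 1 it was -0.10, against 0.02.

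With each library adjusted for a smooth trend on transcript length, the members' median log2 fold change was 0.19, against 0.00 over all features with a length. It was above 0 for 74 of 75, and 47 were higher at an unadjusted *P*-value under 0.05, against 6.56% of all features with a length. Some named members had much smaller values after it: *Rps27l* 0.15, *Rpl38* 0.13, *Rplp1* 0.11 and *Rps15* 0.04, from 0.32, 0.31, 0.28 and 0.21. Values over 1.5 times smaller after it were also those of *Rps28* (0.24), *Rpl36a* (0.25), *Rpl22l1* (0.14), *Rpl39* (0.15), *Rps13* (0.13), *Rpl24* (0.02), *Rps18* (0.28), *Rps19* (0.19), *Rps4x* (0.07), *Rpl10* (0.09) and *Rpl14* (0.02). With both libraries numbered 1 left out, a comparison chosen after the data were seen, the median was 0.35 and 65 members were higher at that threshold, against 5.29% of all features. The part of transcript length, or of what lies behind it, in the members' difference was not tested. Across the 75 members, the log2 fold change had a Spearman correlation of -0.25 with transcript length, -0.07 with GC content and -0.30 with level per kb, as descriptions over genes that share libraries.

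**Figure D3:**
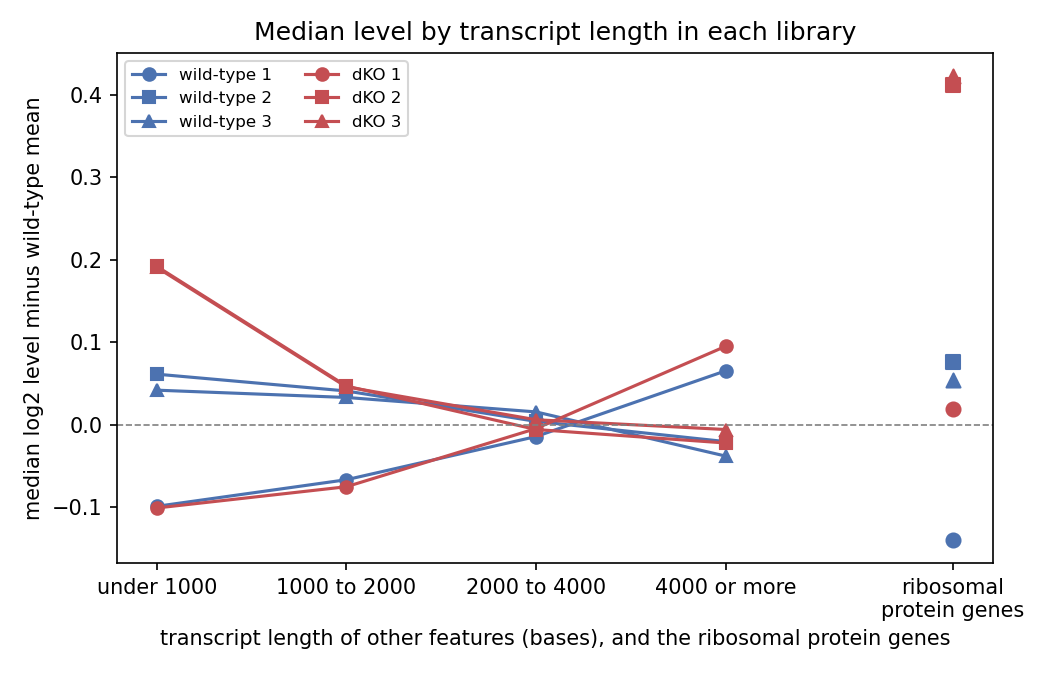
Median log2 level minus the wild-type mean in each library, for other features in 4 classes of transcript length (lines, in bases) and for the 75 ribosomal protein genes (points at the right). The medians of other features under 1000 bases run from -0.10 to 0.19, and those of all 75 members, of any length, from -0.14 to 0.42.

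*Rpl3* encodes a protein of the large subunit that reaches toward the peptidyl transferase centre. It lies on chr15:80077781-80083406, on the minus strand, 10.98 Mb from the end of *Khdrbs3*. It had 16584, 17700 and 17058 normalized counts in wild-type and 10581, 12592 and 12431 in dKO cortex. All 3 dKO libraries lay below all 3 wild-type libraries, and dKO replicate 1 was the lowest. The log2 fold change was -0.53 (SE 0.08), with an adjusted p = 0.0641 from limma, 0.0994 from edgeR and 2.44e-05 from DESeq2.

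Which side of 0.05 the adjusted *P*-value of *Rpl3* took thus depended on the tool. With the length adjustment its log2 fold change was -0.55 and the adjusted p = 0.00416 from limma. Over the limma settings run it lay between 0.00416 and 0.325, the highest without the trend and robust options. It was below 0.05 also with no filter (0.0112), quantile normalization (0.0421), the replicate block (0.049), the block with the length adjustment (0.0295) and without dKO replicate 1 (0.0412). Without any of the other libraries it was above 0.05, from 0.0938 without wild-type replicate 2 to 0.257 without wild-type replicate 3. The log2 fold change was negative in every setting run. Copies held 0.214% of the signal of *Rpl3* and its copies together and summing them left the log2 fold change at -0.53. The muscle paralog *Rpl3l* had at most 4.38 normalized counts in any library.

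Within 200000 bases of *Rpl3*, 9 other named genes were tested, chosen after its value was seen. *Cbx7* had 131, 183 and 195 normalized counts in wild-type and 88.9, 98.3 and 83.5 in dKO cortex, a log2 fold change of -0.88 (SE 0.21, adjusted p = 0.236 from limma, 0.246 from edgeR and 0.029 from DESeq2). *Pdgfb* had 475, 483 and 496 in wild-type and 390, 395 and 370 in dKO cortex, a log2 fold change of -0.33 (SE 0.11, adjusted p = 0.357 from limma). Both were non-overlapping and lower in dKO cortex. The nearest gene, *Syngr1*, had a log2 fold change of -0.12, and *Rps19bp1*, *Tab1*, *Mief1* and *Atf4* had 0.06, 0.13, 0.15 and 0.13. Strain-derived sequence around the targeted loci was not tested. *Rpl37*, the only other member tested on that chromosome, had a log2 fold change of 0.33.

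Among the largest differences, *Rps4l*, an autosomal relative of the X-linked *Rps4x*, came first. It had 1436, 1130 and 1980 normalized counts in wild-type and 2111, 2753 and 2088 in dKO cortex. All dKO libraries lay above all wild-type libraries, but the wild-type libraries differed widely among themselves. The log2 fold change was 0.64 (SE 0.19, adjusted p = 0.335 from limma). *Tmtc1* overlaps it on the other strand, and the strand setting of the counting is not given in the sources used here, so its reads are uncertain, as are those of the other members with an opposite-strand overlap, 16 in all.

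*Rpl31*, whose protein sits near the exit of the nascent-chain tunnel, had 3689, 4363 and 4539 normalized counts in wild-type and 4470, 6886 and 6516 in dKO cortex. dKO replicate 1 fell between wild-type replicates 2 and 3. The log2 fold change was 0.49 (SE 0.15, adjusted p = 0.345 from limma). *Rps18*, a protein of the head of the small subunit, had 4409, 5273 and 4760 in wild-type and 4993, 7255 and 7540 in dKO cortex. Again only dKO replicate 1 lay inside the wild-type range. Its log2 fold change was 0.43 (SE 0.15, adjusted p = 0.36 from limma).

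*Rps28*, a small-subunit protein near the mRNA exit site, had 957, 1053 and 1180 normalized counts in wild-type and 1069, 1689 and 1619 in dKO cortex, a log2 fold change of 0.43. Copies held 74.0% of the signal of *Rps28* and its copies together, and their sum gave 0.53. *Rpl36a*, a large-subunit protein encoded on the X chromosome, had 512, 741 and 681 in wild-type and 708, 866 and 1028 in dKO cortex, a log2 fold change of 0.43. dKO replicate 1 again lay within the wild-type range for both genes. *Rpl36a* was 0.27 without wild-type replicate 1.

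At the other end, after *Rpl3*, stood genes with little difference. *Rpl14* had 2609, 3150 and 3033 normalized counts in wild-type and 3135, 3184 and 2918 in dKO cortex, a log2 fold change of 0.07 (SE 0.09). It was -0.01 without wild-type replicate 1, and copies held 85.0% of its summed signal. *Rpsa*, which encodes the laminin receptor protein of the small subunit, had 39147, 45088 and 43579 in wild-type and 40120, 47350 and 48130 in dKO cortex, a log2 fold change of 0.08 (SE 0.09). The genotypes overlapped in both. With each library left out, *Rpsa* ran from 0.02 without wild-type replicate 1 to 0.17 without dKO replicate 1. With quantile normalization *Rpl14* was 0.014 and *Rpsa* 0.0015.

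*Rpl6*, of the large subunit, had 11640, 13019 and 12724 normalized counts in wild-type and 13476, 13258 and 13443 in dKO cortex. The dKO libraries lay close together and just above the wild-type ones, with a log2 fold change of 0.11 (SE 0.07). *Rps4x*, the X-linked gene, had 17586, 22416 and 20342 in wild-type and 19750, 23347 and 22781 in dKO cortex. These ranges overlapped, with a log2 fold change of 0.13 (SE 0.10). Without wild-type replicate 1 *Rpl6* was 0.06 and *Rps4x* 0.04, and without wild-type replicate 2 they were 0.14 and 0.21. With quantile normalization they were 0.02 and 0.05.

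Levels per kb of transcript spread widely between members, and reads shared with copies make them uncertain. Among the highest were *Rplp1*, *Rps15*, *Rplp0* and *Rps9*. *Rplp1* had a mean of 63564 normalized counts per kb in wild-type and 78279 in dKO cortex, and *Rps15* 54599 and 63531. *Rps9*, a binder of ribosomal RNA near the mRNA entry, had 31410 and 38703. The log2 fold changes of these genes were between 0.21 and 0.30, and the genotypes overlapped in each. With quantile normalization *Rplp1*, *Rps15*, *Rplp0* and *Rps9* were 0.19, 0.09, 0.11 and 0.19. *Rps15*, at 0.21, was 0.13 without wild-type replicate 1 and 0.35 without dKO replicate 1.

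The proteins of the stalk, which recruits translation factors, are *Rplp0*, *Rplp1* and *Rplp2*. *Rplp0* had 47817, 61382 and 56848 normalized counts in wild-type and 54433, 68946 and 71980 in dKO cortex, a log2 fold change of 0.23 (SE 0.12). *Rplp1* had 30501, 30456 and 34198 in wild-type and 29204, 44582 and 43397 in dKO cortex, 0.28 (SE 0.15). In *Rplp1*, dKO replicate 1 was the lowest of all 6 libraries. Its log2 fold change was 0.47 without that library and 0.17 without dKO replicate 2, and that of *Rplp0* was 0.36 without dKO replicate 1 and 0.13 without wild-type replicate 1. *Rplp2* had 11976, 12198 and 13296 in wild-type and 12601, 18081 and 18947 in dKO cortex, 0.38 (SE 0.14). All 3 genes overlapped between genotypes, with adjusted *P*-values from limma between 0.373 and 0.5.

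*Rps6*, the substrate of S6 kinases, had 8933, 10584 and 10461 normalized counts in wild-type and 10415, 12108 and 12914 in dKO cortex, a log2 fold change of 0.24 (SE 0.10). *Rps19*, a gene mutated in Diamond-Blackfan anaemia, had 7137, 7778 and 8159 in wild-type and 7945, 10194 and 10232 in dKO cortex, 0.29 (SE 0.11). In both, dKO replicates 2 and 3 lay above all wild-type libraries. *Rpl24*, of the large subunit, had a log2 fold change of 0.14 (SE 0.12), and *Rpl38*, known for its part in translation of Hox mRNAs, 0.31 (SE 0.21). *Rpl38* had 423, 386 and 518 in wild-type and 385, 683 and 614 in dKO cortex, and dKO replicate 1 was the lowest library. Without dKO replicate 1 *Rpl24* was 0.26 and *Rpl38* 0.56, while *Rpl24* was 0.06 without dKO replicate 3 and *Rpl38* 0.15 without dKO replicate 2.

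Paralogs were compared with the genes they resemble. *Rpl22*, an RNA-binding protein of the large subunit, had 12722, 14579 and 14274 normalized counts in wild-type and 14339, 16685 and 16942 in dKO cortex, a log2 fold change of 0.20 (SE 0.09). Its paralog *Rpl22l1* had 518, 652 and 623 in wild-type and 560, 873 and 790 in dKO cortex, 0.29 (SE 0.17). Both overlapped between genotypes through dKO replicate 1. *Rpl22l1* was 0.48 without that library and 0.16 without dKO replicate 2. *Rps27l*, a p53-responsive relative of *Rps27*, had 700, 782 and 736 in wild-type and 848, 955 and 964 in dKO cortex. Its genotypes did not overlap, with a log2 fold change of 0.32 (SE 0.10, adjusted p = 0.341 from limma).

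*Rpl7*, of the large subunit, had 24938, 30493 and 28004 normalized counts in wild-type and 31068, 33542 and 33206 in dKO cortex, a log2 fold change of 0.23 (SE 0.09). *Rpl7l1*, a relative found in precursors of the large subunit, had 3776, 4642 and 4317 in wild-type and 4719, 4820 and 5002 in dKO cortex, 0.20 (SE 0.09). Neither pair of groups overlapped. With quantile normalization *Rpl7* was 0.09 and *Rpl7l1* 0.14. *Rpl10*, which joins the large subunit last, had a log2 fold change of 0.17 (SE 0.11). *Rpl39*, a short protein of the exit tunnel, had 0.29 (SE 0.16). Without dKO replicate 1 *Rpl10* was 0.28 and *Rpl39* 0.50, and *Rpl10* was 0.09 and *Rpl7l1* 0.11 without wild-type replicate 1. *Rpl39* was 0.18 without dKO replicate 2, and *Rpl10* was 0.10 with quantile normalization. *Rpl10l* was listed at 0 in all 6 libraries, and *Rpl39l* had at most 5.26 normalized counts in any of them.

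The study lists *Rpl30* and *Rps13* among genes with altered splicing in these animals, which is not independent evidence of any change in level. *Rps13* had 667, 759 and 799 normalized counts in wild-type and 704, 1009 and 1018 in dKO cortex, a log2 fold change of 0.28 (SE 0.15). It followed the pattern of most members, with dKO replicate 1 inside the wild-type range, and was 0.45 without that library.

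*Rpl30* is counted together with a second gene. The feature joined from *Gm12191* and *Rpl30*, outside the member rule and on chr15:34440505-34443276, had 4220, 5073 and 4481 normalized counts in wild-type and 2659, 747 and 3744 in dKO cortex. All dKO libraries lay below all wild-type libraries, and dKO replicate 2 stood far below the others. The log2 fold change was -1.23 (SE 0.68, adjusted p = 0.554 from limma), and -0.95 from edgeR and from DESeq2. Whether this is a difference in *Rpl30* or in how reads on the joined genes were counted was not tested. Of the 5 such joined features, the others, also outside the rule and named after their values were seen, which hold *Rpl34*, *Rpl26*, *Rps27* and *Rpl13a*, had log2 fold changes of 0.31, 0.37, 0.37 and 0.22. *Rpl34*, a reference gene of quantitative PCR in the study, had 2599, 3281 and 3303 in wild-type and 3096, 4179 and 4155 in dKO cortex.

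Reads of a member and of its near-identical copies cannot be told apart with confidence. At an identity of at least 95% over at least 150 bases, 193 other features overlap annotated pseudogenes that resemble a member, and 62 of the 75 members had such a feature. Copies held over 50% of the summed signal for 8 members, among them *Rpl37* with 95.9%, *Rpl14* with 85.0% and *Rps28* with 74.0%. They held under 1% for 36 members, whose median log2 fold change was 0.29. When members and copies were summed, a comparison chosen after the data were seen, the median was 0.28, no member changed its direction, and the largest shift of a log2 fold change was 0.09.

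The members lie on 19 chromosomes, with 13 on chromosome 7 and 4 on X. What many of them share in sequence is a run of pyrimidines near the start. In the RefSeq promoter table of GRCm38.p6, 59 of the 78 members had an entry. A C followed by at least 6 bases that are each C or T was searched on the gene strand within 50 bases of the annotated start. A run began within 10 bases of the start in 25 of the 59 members, or 42.4%, against 12.9% of all genes in the table. Within 50 bases the shares were 84.7% and 44.5%. The median log2 fold change was 0.29 for the 24 tested members with a run within 10 bases and 0.24 for the 32 without.

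Windows of 7 members with a near run, whose levels are given above, follow in GRCm38.p6, with the run in capitals.
*Rpl31* (chr1:39367839-39367868, plus strand): cctcctcgCCTCCCCgtgacccggaagttg
*Rps18* (chr17:33955646-33955675, minus strand): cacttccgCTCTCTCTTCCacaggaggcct
*Rplp2* (chr7:141447639-141447668, plus strand): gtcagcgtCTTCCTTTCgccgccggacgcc
*Rps9* (chr7:3704028-3704057, plus strand): cgccttgtCTCTCTTTgtctcgggcctgag
*Rps6* (chr4:86857347-86857376, minus strand): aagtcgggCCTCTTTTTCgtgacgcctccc
*Rpl38* (chr11:114668572-114668601, plus strand): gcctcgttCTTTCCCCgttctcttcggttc
*Rpl14* (chr9:120571501-120571530, plus strand): agggcgggCCCTCTCTCTTCTCgctgagcg

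These matches are descriptions of letters and not of sites. *Rpl3*, the member that was lower, had no entry in the table.

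Genes that share roles with the members were read from the same fit. *Fau* and *Rack1* encode ribosomal proteins with other names. *Fau* had 996, 1174 and 1201 normalized counts in wild-type and 1158, 1503 and 1508 in dKO cortex. Its log2 fold change was 0.30 (SE 0.12) and that of *Rack1* was 0.32 (SE 0.14), and the genotypes overlapped in both.

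Of 10 tested translation elongation and other TOP genes, 5 were higher at an unadjusted *P*-value under 0.05 and 0 lower (4.92% and 6.58% of all features), with a median of 0.17 and 0 past an adjusted *P*-value of 0.05 from limma. Their genotypes did not overlap in 6, all higher in dKO cortex, as in 7.89% of all features. *Tpt1*, a TOP mRNA, and *Naca*, a nascent-chain binding protein, had log2 fold changes of 0.30 and 0.29, and *Eef1a2*, the neuronal elongation factor, had -0.18. *Pabpc1*, the poly(A)-binding protein, had 0.10.

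At an unadjusted *P*-value under 0.05, 4.92% of all features were higher and 6.58% lower. Of 28 initiation factor genes, 4 were higher and 0 lower, with a median of 0.13, from *Eif3e* at -0.09 to *Eif3l* at 0.24. Of 39 ribosome biogenesis genes, 7 were higher and 0 lower, with a median of 0.11, from *Gnl3* at -0.03 to *Heatr1* at 0.35. Of 74 mitochondrial ribosomal protein genes, 4 were higher and 0 lower, with a median of 0.09, from *Mrps22* at -0.22 to *Mrpl14* at 0.32. Among the 17 genes upstream of ribosomal protein synthesis, 2 were higher and 1 was lower, with a median of 0.03. These ran from *Zfp692* at -0.38 and *Rps6ka1* at -0.24 to *Eif4ebp2* at 0.23 and *Mycn* at 0.28. Of all features, 7.89% were higher and 8.48% lower in dKO cortex without overlap of the genotypes. Initiation factor genes gave 5 higher and 0 lower without overlap, and ribosome biogenesis genes 12 and 0. Mitochondrial ribosomal protein genes gave 4 and 1, and the upstream genes 0 and 2.

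The 71 respiratory chain genes with short transcripts gave 5 higher and 1 lower at that threshold, where 4.92% and 6.58% of all features were, with a median of 0.13. Their sum was 295553, 319416 and 310411 normalized counts in wild-type and 299974, 356620 and 369627 in dKO cortex. dKO replicate 1 lay within the wild-type range and dKO replicates 2 and 3 above it, as for the members. No gene of any of these lists passed an adjusted *P*-value of 0.05 from limma.

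Markers of other cells were read beside the members. Progenitor markers gave 3 higher and 0 lower of 7 at an unadjusted *P*-value under 0.05 (4.92% and 6.58% of all features) and a median log2 fold change of 0.28, beside 0.29 for the members, with a sum of 6145, 6652 and 7043 normalized counts in wild-type and 8715, 7254 and 7639 in dKO cortex, most of it *Eomes*. Here dKO replicate 1, in which the members were lowest of the dKO libraries, had the highest sum. In dKO cortex of this age, the study reports fewer cells stained for neural progenitor markers, the *Eomes* protein among them. The marker sums and the stained cells thus point in different directions. Whether the sums follow the number of progenitor cells was not tested. Of 5 erythroid markers found, none was called, with a median of 0.20 and most signal on *Hba-a1*. Endothelial markers had a median of -0.23, with 2 of 5 lower at that threshold (6.58% of all features), meningeal markers -0.76, with 1 of 4 lower, and microglial markers -0.15, with 0 of 5. Several cortical markers were also higher, as given with the check of the labels. The part of cell composition in the members' difference was not tested.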

How the data were processed

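Libraries of polyA+ RNA from 3 wild-type and 3 dKO cortices were grouped by their titles. The deposited unit is signal: the authors counted reads per gene and scaled each library by its size factor, a step that the submitters' processing notes attribute to DESeq2, after STAR 2.7.5a alignment to mm10 with Picard, SAMtools and FastQC. The counting program and its strand setting are not given in the sources used here. Dividing by the value of 1 read gave whole numbers for 100% of positive values in every library (tolerance 0.01), so whole reads were recovered. 

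The genotypes were compared by limma 3.58.1 (R 4.3.3; lmFit, eBayes with trend and robust) on log2 values with a pseudocount of 1, two-sided, keeping features whose mean reached 10. The Benjamini-Hochberg adjustment covered all 18970 features. The pseudocount shrinks fold changes of low genes. The quasi-likelihood test of edgeR 4.0.16, and DESeq2 1.42.0, were run on the recovered reads as alternatives. All 3 tools were tested on simulated data in which features varied independently. That simulation held larger changes than those of the members and no trend on transcript length, so it does not cover their joint pattern. Transcript lengths came from GENCODE M21 and copies from blastn (BLAST 2.17.0). Python 3.11.15 with pandas 2.3.3, numpy 2.4.6, scipy 1.17.1 and matplotlib 3.10.9 was used for the rest. Other alternatives were pseudocounts of 0.1 and 10, other filters, quantile and TMM normalization, a replicate block, a length adjustment, each library left out in turn, members summed with rows ending in -ps or, chosen after seeing the data, with all copies, and both libraries numbered 1 left out, also chosen after seeing the data. For the summed level, the 10 features with the most reads, or the 5 members with the most reads, were left out.

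Named members are the 5 with the highest and the 5 with the lowest log2 fold change, the 6 highest per kb, those past an adjusted threshold in any tool, the paralogs, a few well-known members, and the study's spliced or reference genes. The members and lists were chosen with earlier results of these data known. Some genes that this rule or the lists name are not reported here.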

Additional observations from a re-analysis of the deposited data

How the results depend on the processing

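The median log2 fold change of the members, 0.29, was above 0 under every alternative run, from 0.19 with the length adjustment to 0.42 without dKO replicate 1 (0.21 at the lowest when a library was omitted). It was 0.22 with quantile normalization and 0.29 with TMM rescaling. With quantile normalization *Rpl22*, *Rps6* and *Rpl24* were 0.13, 0.16 and 0.09, from 0.20, 0.24 and 0.14. *Rpl22l1* and *Rpl38* were 0.30 and 0.34, from 0.29 and 0.31. The ratio of summed shares, 1.13, ran from 1.08 to 1.23 when each library was omitted.

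At the adjusted threshold of 0.05, limma and edgeR called 0 members, with 41 and 42 at an unadjusted *P*-value under 0.05. The adjusted count was 1 with no filter, with quantile normalization, with DESeq2 and with the length adjustment. Omitting single libraries gave 0 to 8, with 8 without dKO replicate 1. The unadjusted count of 41 was 15 with quantile normalization (10.03% of all features), 6 when limma had neither trend nor robust fitting (9.88%), and 66 with both libraries numbered 1 left out (9.37%), chosen after seeing the data. Omitting single libraries gave 6 to 69, where all features gave 6.43% to 14.3%; the lowest counts were 8% of members. The 11 members with non-overlapping genotypes (14.7%, against 16.4% of all features) were 3 with quantile normalization (4%, against 14.8%). With the length adjustment 40 were higher (53.3%, against 9.87% of all features with a length) and 1 was lower. Omitting single libraries gave 11 to 74. The count was 74 without dKO replicate 1 (98.7%, against 29.5%). It was 25 without wild-type replicate 2 (33.3%, against 33.0%) and 19 without wild-type replicate 3 (25.3%, against 23.0%). Without wild-type replicate 1, dKO replicate 2 or dKO replicate 3 the 11 stood against 26.6%, 30.2% and 22.3%. The cause was not tested.

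With the replicate block, the unadjusted count was 65 (12.2% of all features) and the adjusted count 1 (0.0474%), and with the block and the length adjustment together they were 48 (11.9%) and 1 (0.0286%). Libraries with the same replicate number had correlations of 0.098, -0.228 and -0.079 between their deviations over all features tested. The highest value for any pair was 0.205. The labels name no pairing, and the numbers were not read as one. Both libraries numbered 1 nevertheless had the positive correlations with transcript length given above. A batch shared by libraries of the same number was not tested.

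*Rpl14* was -0.01 (-0.00665) without wild-type replicate 1, up to 0.13 without wild-type replicate 2, and -0.02 (-0.0202) with both libraries numbered 1 left out. The cause was not tested. *Khdrbs3* had an adjusted p = 0.0891 when limma had neither trend nor robust fitting.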
